A study of Mus musculus with 48 samples.

Results

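Expression was compared between mice labelled Il1rl1-/- and wild-type (WT) mice across 3 sorted splenic populations at once, and the quantity described here is the genotype difference common to monocytes, red pulp macrophage precursors (pre-RPMs) and red pulp macrophages (RPMs). All 24 RNA-seq libraries of the series were used, 12 labelled Il1rl1-/- and 12 labelled WT, out of 48 samples in all. All mice were males of 10 weeks, WT Balb/c or Il1rl1-/- on that background, and no other allele or treatment is named for either group. Monocytes were sorted as Ly6Glo CD11bhi F4/80- cells, pre-RPMs as Ly6Glo CD11bhi F4/80lo cells and RPMs as Ly6Glo CD11blo/- F4/80hi cells. The labels number 4 mice in each genotype, with 1 library per mouse and population, so that the 12 libraries of a genotype were taken to come from 4 mice and the replicate is the mouse.

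Il1rl1 encodes ST2, the ligand-binding chain of the receptor for IL-33, a cytokine of the IL-1 family that is released by damaged cells. The receptor signals through MyD88 and IRAK kinases to NF-kB and MAP kinases and is best known from mast cells, basophils, type 2 innate lymphoid cells and regulatory T cells. In the spleen, RPMs clear aged red blood cells, break down heme and return its iron to the circulation, and they are replenished in part from monocytes through the F4/80lo stage.

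A gene was called with edgeR's quasi-likelihood test when its Benjamini-Hochberg adjusted p was under 0.05 in a model with cell type and genotype, and with limma voom when it was under 0.05 in the same model with the mouse as a random block. The edgeR model treats the 3 libraries of a mouse as separate samples. The limma model allows for a correlation within a mouse, the same for all genes. That correlation was 0.0713, so the limma test is close to a test over separate libraries and is not a test over mice. A shared genotype difference is a gene past both thresholds whose log2 fold change has the same sign in monocytes, pre-RPMs and RPMs. Levels are given as CPM, counts scaled to a fixed library size with TMM factors, each fold change is that of the libraries labelled Il1rl1-/- over WT, and a mouse's level is the mean CPM of its 3 libraries.

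Total counts per library ran from 3562367 to 6559454, and a single gene, Gm42418, took 24.4% to 38.8% of them. Summed markers of RPMs reached a median of 8370 CPM in WT RPMs against 198 CPM in WT pre-RPMs and 81.3 CPM in WT monocytes. The monocyte gate also held markers of other cells. The summed NK cell markers there ran from 643 to 2070 CPM in WT and from 567 to 1720 CPM in the libraries labelled Il1rl1-/-. In the same order, the summed neutrophil markers ran from 750 to 2460 CPM and from 1010 to 2050 CPM. The summed monocyte markers ran from 538 to 1320 CPM and from 709 to 1360 CPM. In bulk libraries fewer cells of a type and less RNA per cell cannot be told apart.

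The targeted gene did not have a common effect. The 4 WT monocyte libraries held 28, 19, 12 and 13 counts of Il1rl1, and the 4 labelled Il1rl1-/- held 51, 73, 71 and 64. Pre-RPM libraries of WT mice held 18, 15, 13 and 24 counts against 50, 76, 42 and 65 for their labelled counterparts. RPM libraries of WT mice held 5, 9, 7 and 13 counts against 1, 7, 3 and 6. The signal was therefore higher in every monocyte and pre-RPM library labelled Il1rl1-/- than in any WT library of the same population, against the direction the label implies, and lower on average in RPMs, where the CPM of the groups overlapped. The edgeR log2 fold changes were 2.13 for monocytes (SE 0.245), 1.53 for pre-RPMs (SE 0.248) and −1.15 for RPMs (SE 0.397). The 3 differed from one another with an adjusted p of 0.00485 in edgeR's interaction test. Averaged over the populations the gene stood 1.35 log2 units higher (SE 0.268, edgeR adjusted p = 0.0114, limma adjusted p = 0.00056), and the exact 2-sided permutation test over 4 mice against 4 gave p = 0.0286, the smallest that this design allows. The edgeR call was lost without WT mouse 1 (1.34, edgeR adjusted p = 0.0957) and without Il1rl1-/- mouse 2 (1.31, 0.0544). It was also lost without the monocyte libraries (0.797, edgeR adjusted p = 0.46) and without the pre-RPM libraries (1.17, 0.648). Counts over all exons of the gene do not show whether the deleted exons were transcribed.

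A small set of genes differed with genotype over the 3 populations jointly, with the same sign in each. Of 12842 genes tested, edgeR called 47 (0.366%), of which 21 (0.164%) were higher and 26 (0.202%) lower in the libraries labelled Il1rl1-/-. The limma model with the mouse as a random block called 45 (0.35%), 25 higher and 20 lower. Past both thresholds were 35 genes (0.273%), and 32 of them (0.249%) had the same sign in every population, 15 higher and 17 lower. Counts summed per mouse, which give a test over mice, called 22 of these 32. Over all genes tested, 30.6% had the same sign in the 3 populations, and the median log2 fold change was −0.00139. With the mouse number, which the genotypes share in the labels, as a further replicate block, edgeR called 82 genes (0.639%), limma 187 and the shared set held 74, among them all 32. In that limma fit the correlation within a mouse was −0.0574, against 0.0713 in the main fit. A negative correlation narrows the error of a difference between mice. Passing limma with the replicate block is therefore no guard against counting libraries of 1 mouse as separate. Without that block, leaving out WT mouse 3 took the counts of 47, 45 and 32 to 94, 87 and 67, leaving out only its monocyte library took them to 84, 74 and 55, and the edgeR count was 75 without the monocyte library of Il1rl1-/- mouse 1 and 30 without WT mouse 1.

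The 32 genes comprised 26 protein-coding genes, 3 snRNA genes, 2 unverified transcripts and 1 immunoglobulin constant gene. In 27 of them the mean log2 CPM of the 4 mice of one genotype did not overlap that of the other 4, against 3.48% of all genes tested. In 15 the groups were apart within each of the 3 populations (0.117% of genes tested), and in 9 the 12 libraries of one genotype were all above the 12 of the other (0.0701%). Those 9 were Cux2, Hormad1, Gm25813, Gm25360, Mfap1a, Golph3l, Hjurp, AC117239.2 and 6820402A03Rik. In 25 of the 32 the unadjusted edgeR p was under 0.05 in each population taken alone. The 32 were selected by the joint tests on the same counts, so neither the counts of groups apart nor the 25 are a separate test. The 15 and the 9 were also all such genes among those tested. For the 25 the share over all genes was not computed. Over all genes tested, 8.26% had an unadjusted edgeR p under 0.05 for the effect common to the populations, which is the background for the counts at that threshold in the gene lists that follow. The fold ran from 1.35 to 10.2 with a median of 1.79 among the genes that were higher, and from 1.32 to 9.04 with a median of 2.02 among those that were lower, leaving out 2 genes with almost no counts in one genotype.

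**Figure D1:**
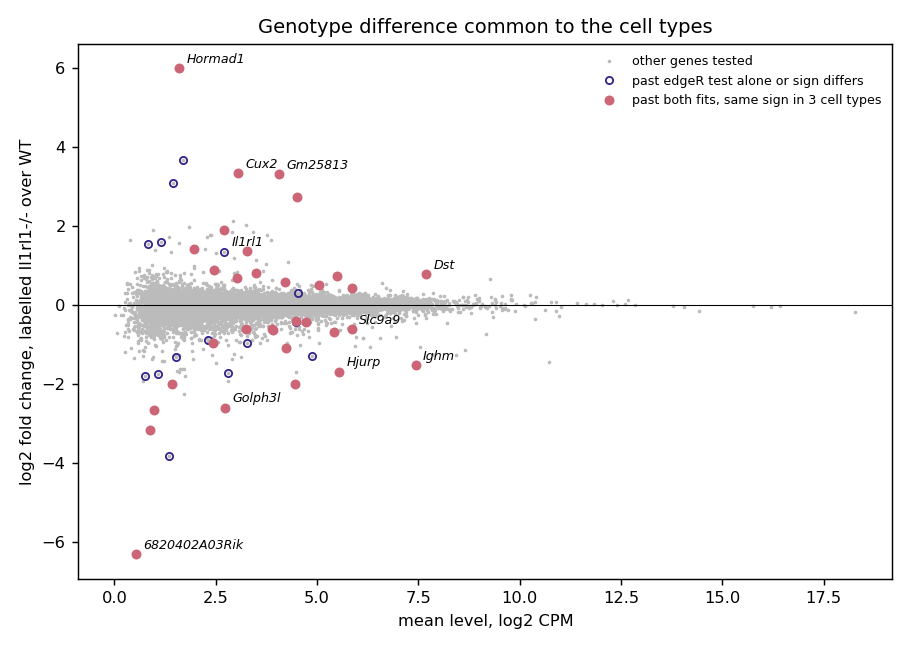
The log2 fold change of the libraries labelled Il1rl1-/- over WT, common to the 3 populations, against the mean level in log2 CPM, 1 point per gene tested (n = 12842). The 32 shared genes are filled, genes called by edgeR that were not shared are open, and the positions of Hormad1 and 6820402A03Rik depend on the prior count because one genotype had almost no counts.

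Cux2, a homeodomain transcription factor best known from upper-layer cortical neurons, had the largest rise apart from Hormad1, described next. Its mean level was 1.29, 1.76, 1.46 and 1.17 CPM in the 4 WT mice and 14.1, 13.3, 13.5 and 16.6 CPM in the 4 mice labelled Il1rl1-/-. All 12 libraries of the labelled group, with 48 to 111 counts, lay above all 12 WT libraries, with 4 to 10 counts. The group means were 1.42 ± 0.26 and 14.4 ± 1.53 CPM (SD, n = 4 mice each), and the difference was 3.35 log2 units (SE 0.155, edgeR adjusted p = 3.59e-14, limma adjusted p = 3.29e-10). The monocyte (3.69), pre-RPM (3.21) and RPM (3.11) differences were of like size, and the interaction test gave an unadjusted p of 0.337. The gene spans chr5:121856366-122050102 on the minus strand of GRCm38.

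Hormad1 encodes a HORMA-domain protein of meiotic chromosome axes that is otherwise restricted largely to germ cells. It had 3 counts in all 12 WT libraries together, with 10 of them at 0, and 292 counts in the 12 libraries labelled Il1rl1-/-, each with 10 to 45 counts. The labelled mice stood at 4.42, 5.52, 5.08 and 5.39 CPM, and the ratio of the pooled CPM was 96.8 with an exact 95% interval of 32.8 to 472 that covers counting error alone. Both tests called the gene (edgeR adjusted p = 3.35e-12, limma adjusted p = 2.89e-10).

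Golph3l, which encodes a Golgi phosphoinositide-binding protein, lies 1263 bases downstream of Hormad1 on the same strand of chromosome 3 and went the other way. The WT mice stood at 11.7, 8.54, 11 and 11.4 CPM and the mice labelled Il1rl1-/- at 1.3, 1.75, 2.23 and 1.86 CPM. No library of one genotype overlapped the other. The log2 fold change was −2.60 (SE 0.203, edgeR adjusted p = 1.61e-09, limma adjusted p = 3.44e-07), and the single populations gave −2.97, −3.33 and −1.84 in the order monocytes, pre-RPMs, RPMs. Hormad1 spans chr3:95559677-95587671 and Golph3l chr3:95588934-95619247, so that the pair with the opposite changes is adjacent in the genome.

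**Figure D2:**
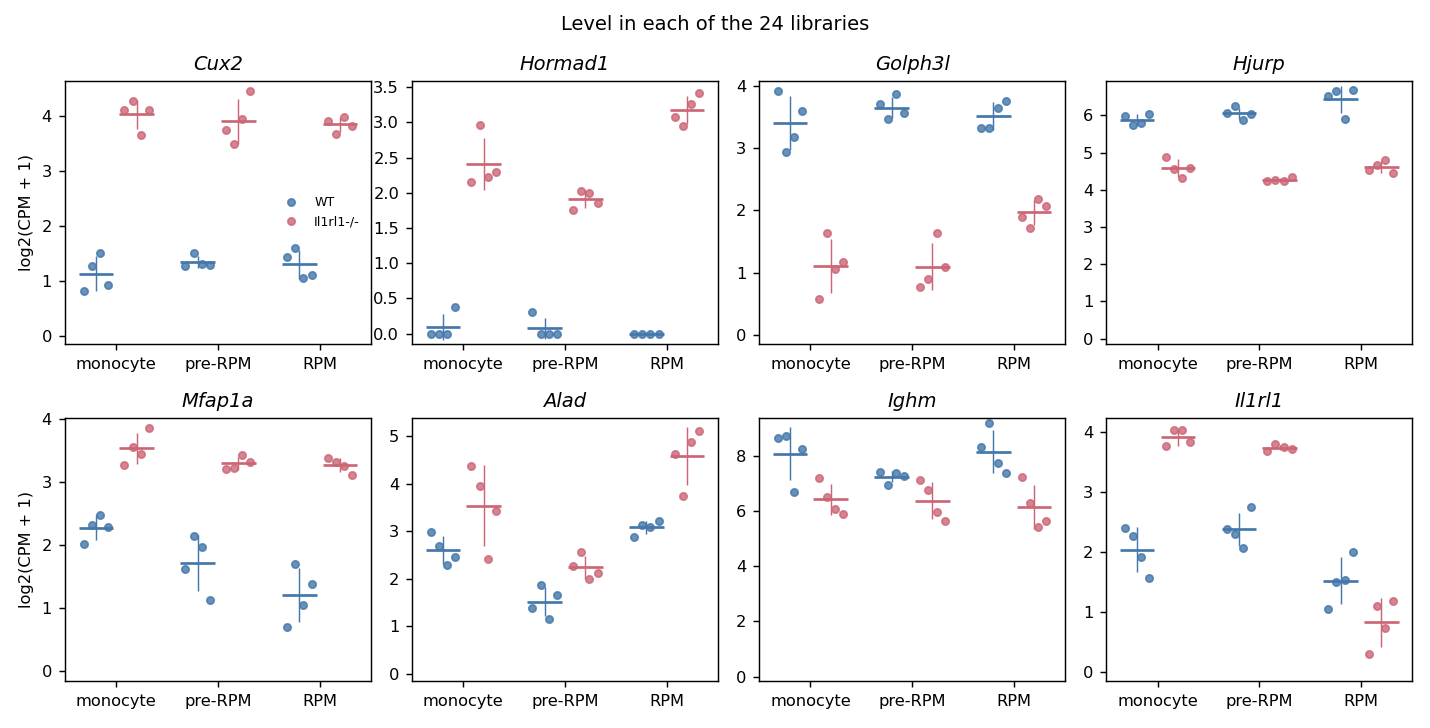
The level of 8 genes in each of the 24 libraries as log2(CPM + 1), by population, with WT in blue and the libraries labelled Il1rl1-/- in red. Horizontal lines are means and vertical lines SDs over 4 libraries, and the genotypes are apart in every population for Cux2, Hormad1, Golph3l, Hjurp and Mfap1a but not for Alad, Ighm and Il1rl1.

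Hjurp, the chaperone that places the centromeric histone CENP-A, had the smallest edgeR p among the genes that fell. The 4 WT mice stood at 73.4, 75.4, 57.0 and 76.4 CPM and the 4 labelled mice at 22.8, 21.9, 21.3 and 21.1 CPM. Its log2 fold change was −1.69 (SE 0.0956, edgeR adjusted p = 2.57e-12, limma adjusted p = 3.44e-11), and the values in the populations were −1.33, −1.84 and −1.88. The change did not extend to the group of genes that load CENP-A as a called difference, since Hjurp was the sole call among 7 members tested. Cenpa, which encodes CENP-A itself, stood at −0.26 on the log2 scale with an edgeR adjusted p of 0.745.

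Mfap1a and Mfap1b, neighbouring genes on chromosome 2 for a component of the spliceosome, were both higher. Mfap1a was at 1.94, 3.23, 2.88 and 2.24 CPM in the WT mice and at 8.81, 9.38, 9.46 and 10.1 CPM in the labelled mice, which is 1.90 log2 units (SE 0.163, edgeR adjusted p = 1.28e-08). Mfap1b was at 2.15, 1.21, 1.75 and 2.33 CPM and at 5.77, 5.2, 4.03 and 5.21 CPM, which is 1.42 log2 units (SE 0.181, edgeR adjusted p = 2.72e-05). The mice of the genotypes did not overlap for either gene. A transcript of each, of 4198 and 3362 bases, matched the other over 2328 bases with an identity of 99.3%, and reads that fit both genes equally well were not counted for either. The genes lie 17.8 kb apart on the minus strand, at chr2:121491911-121506665 and chr2:121460235-121474067.

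Alad, an enzyme of heme synthesis, stood at 4.98, 5.27, 4.22 and 5.0 CPM in the WT mice and at 15.7, 10.5, 11.9 and 15.6 CPM in the labelled mice. The mice did not overlap, and the log2 fold change was 1.37 (SE 0.205, edgeR adjusted p = 0.000317, limma adjusted p = 0.00948). It was largest in RPMs (1.70) and was 1.18 in monocytes and 1.01 in pre-RPMs. Without the RPM libraries the edgeR adjusted p was 0.101.

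3 of the 32 shared genes are copies of U2, the spliceosomal RNA that pairs with the branch point of introns. Gm25813 on chromosome 8 and Gm25360 on chromosome 1 were higher in the libraries labelled Il1rl1-/-, and Gm25939, 28.6 kb from Gm25360, was lower. Their sequences on GRCm38 are shown because the copies differ at few bases, and it is the counts of these near-identical copies that moved in opposite directions. Rnu2-10 and Gm26316 are given as copies from chromosome 11. Capitals mark the positions at which the 5 copies differ.
Gm25360: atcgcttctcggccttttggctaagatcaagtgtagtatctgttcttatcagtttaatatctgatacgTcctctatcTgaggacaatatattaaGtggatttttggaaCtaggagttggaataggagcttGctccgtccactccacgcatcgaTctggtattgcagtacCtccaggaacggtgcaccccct
Gm25813: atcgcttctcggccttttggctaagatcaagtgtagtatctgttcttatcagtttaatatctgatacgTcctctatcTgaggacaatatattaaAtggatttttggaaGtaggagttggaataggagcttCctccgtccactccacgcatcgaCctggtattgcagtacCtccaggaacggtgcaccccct
Gm25939: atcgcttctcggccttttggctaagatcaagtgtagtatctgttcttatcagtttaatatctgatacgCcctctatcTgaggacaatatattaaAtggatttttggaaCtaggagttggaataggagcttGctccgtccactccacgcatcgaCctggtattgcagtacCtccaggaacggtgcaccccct
Rnu2-10: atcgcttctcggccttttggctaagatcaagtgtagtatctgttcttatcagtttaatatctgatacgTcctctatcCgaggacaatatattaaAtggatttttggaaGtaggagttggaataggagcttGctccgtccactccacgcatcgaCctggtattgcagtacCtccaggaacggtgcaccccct
Gm26316: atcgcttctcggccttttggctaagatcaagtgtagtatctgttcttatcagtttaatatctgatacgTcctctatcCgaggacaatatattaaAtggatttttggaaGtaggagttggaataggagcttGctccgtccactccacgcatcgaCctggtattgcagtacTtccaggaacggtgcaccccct

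Counting from 1 at the 5′ end of the 191 bases, with the base of the first-named copy written first, Gm25360 and Gm25939 differ at 3 positions (T69C, G95A and T154C), Gm25360 and Gm25813 at 4 (G95A, C109G, G131C and T154C) and Gm25813 and Gm25939 at 3 (T69C, G109C and C131G). The genes lie at chr1:72226240-72226430 (Gm25360, plus strand), chr1:72255008-72255198 (Gm25939, plus strand) and chr8:52336915-52337105 (Gm25813, minus strand).

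Gm25360 rose from 4.18, 5.62, 5.06 and 8.27 CPM in the WT mice to 28.8, 33.6, 47.8 and 44.7 CPM in the labelled mice (log2 fold change 2.75, SE 0.184, edgeR adjusted p = 5.83e-11). Gm25813 rose from 1.9, 4.2, 2.75 and 3.16 CPM to 20.1, 23.5, 40.0 and 35.4 CPM (3.32, SE 0.209, edgeR adjusted p = 1.56e-11). Gm25939 fell from 26.2, 45.0, 30.1 and 38.2 CPM to 6.37, 7.33, 11.3 and 9.4 CPM (−1.99, SE 0.212, edgeR adjusted p = 9.23e-07). No mouse of one genotype reached the range of the other for any of the 3, and each kept its direction in every population. Of 13 counted snRNA genes at least 90% identical to Gm25360, 4 had enough counts to be tested, and the fourth, Gm26316, stood at −0.14 with an edgeR adjusted p of 0.926. Summed over the 13 genes, the level ran from 18.9 to 102 CPM in the WT libraries with a median of 45.9, and from 44.2 to 149 CPM in the labelled libraries with a median of 81.3. The libraries of the 2 genotypes overlapped in this sum, and so did those of Gm25939 (12.7 CPM in the lowest WT library, 17 CPM in the highest labelled one). Within a mouse number and population, the sum was higher in the labelled library in 11 of 12 pairs, the exception being pre-RPMs of number 2 (102 against 48.2 CPM).

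The other rises were smaller, and none of them kept all 12 libraries apart. Dst, a cytoskeletal linker protein, was at 161, 160, 155 and 191 CPM in the WT mice and at 235, 257, 259 and 237 CPM in the labelled mice (log2 fold change 0.79, SE 0.115, edgeR adjusted p = 0.000241). Its groups were apart within each population although its level in RPMs (443 to 554 CPM in WT) was far above that in monocytes (5.99 to 8.22 CPM). Hibch, an enzyme of valine breakdown, rose by 0.88 (edgeR adjusted p = 0.000636), and Inpp1, a phosphatase of inositol phosphates 27.2 kb away, rose by 0.68 (edgeR adjusted p = 0.00951). Lama1, a laminin chain, rose by 0.81 and Lima1, an actin-binding protein, by 0.73 (edgeR adjusted p = 0.00382 and 0.00734). Rftn2, a raft-associated protein, rose by 0.58, Abhd13, a predicted hydrolase, by 0.52 and Igf1r, the receptor of insulin-like growth factor, by 0.43 (edgeR adjusted p = 0.00984, 0.00421 and 0.0284). The log2 CPM of the mice overlapped between the genotypes for Rftn2, Lima1 and Igf1r, for which the exact permutation p over 4 against 4 mice was 0.0571.

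Among the smaller falls, Slc9a9, an endosomal sodium-proton exchanger, had the smallest edgeR p. It stood at 71.4, 66.5, 68.5 and 72.4 CPM in the WT mice and at 40.0, 49.9, 42.9 and 49.6 CPM in the labelled mice, and the groups were apart within every population (log2 fold change −0.61, SE 0.0678, edgeR adjusted p = 2.26e-06, limma adjusted p = 8.19e-06). Fam135a fell by 0.95, Hist4h4, a histone H4 gene, by 0.68, Nol12, a nucleolar protein, by 0.63, Gm47087 by 0.62 and Cers5, a ceramide synthase, by 0.60. Their edgeR adjusted p ran from 0.000415 for Fam135a to 0.0443 for Gm47087. Gtpbp1, a GTP-binding protein, and Cspp1, a protein of centrosomes and cilia, fell by 0.42 and 0.41 (edgeR adjusted p = 0.0059 and 0.00617). Gm47087 and Igf1r stayed in the shared set in 7 and 5 of the 24 fits that left out 1 library. Of the 8 fits that left out 1 mouse, Gm47087 stayed in 1, Igf1r, Inpp1 and Rftn2 in 2, Smoc2 in 4 and Cspp1, Gtpbp1 and Lima1 in 5.

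Among the genes that fell, Gpd1 and Smoc2 were at a low level outside 1 population, as was Eya1, described below. Gpd1, the cytosolic glycerol phosphate dehydrogenase, was at 64.4 to 82.8 CPM in WT RPMs and at 29.1 to 42.3 CPM in labelled RPMs, a within-RPM log2 fold change of −1.10 (SE 0.22), while it stayed at or below 1.97 CPM in every monocyte and pre-RPM library. Its values there (−0.25, SE 1.05, and −1.14, SE 0.846) had errors too large to show a difference at this depth, so its common sign is not a measured common effect. Smoc2, a secreted matrix protein, was at 3.22 to 10.4 CPM in WT monocytes and 0.413 to 5.19 CPM in the labelled ones, and at most 2.04 CPM elsewhere. Its log2 fold changes were −2.17 in monocytes (SE 0.51), −2.26 in pre-RPMs (SE 1.08) and −1.35 in RPMs (SE 0.847). The log2 fold change over the populations was −2.00 for Smoc2 (SE 0.397, edgeR adjusted p = 0.0113) and −1.08 for Gpd1 (SE 0.203, edgeR adjusted p = 0.00646).

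**Figure D3:**
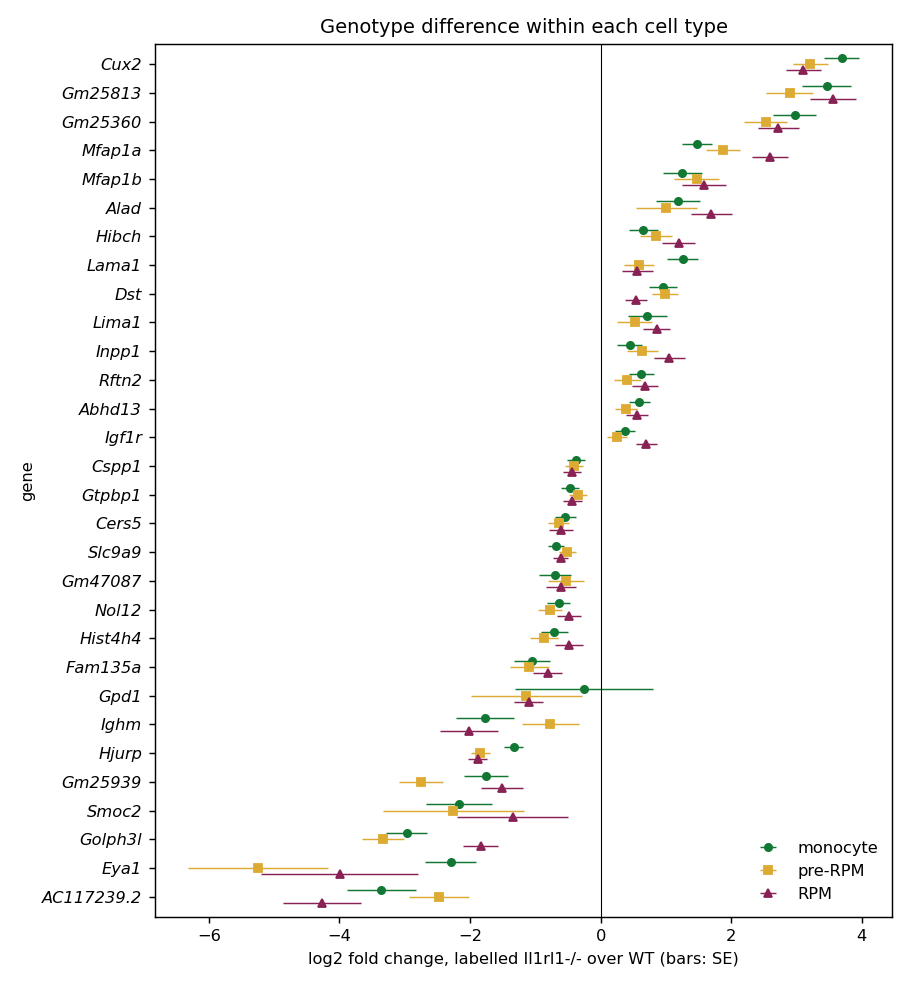
The log2 fold change of the libraries labelled Il1rl1-/- over WT within monocytes, pre-RPMs and RPMs for 30 of the 32 shared genes, with bars of 1 SE. Hormad1 and 6820402A03Rik are left out because one genotype had almost no counts, and Gpd1 in monocytes has an SE of 1.05 that crosses 0.

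3 shared genes had a mean level under 1 log2 CPM. The unverified transcript 6820402A03Rik on chromosome 1 had 116 counts over the 12 WT libraries and 0 in all 12 labelled libraries, where 3 counts would be 0.492 to 0.896 CPM. On average it was at least 3.24-fold lower, taking the mean WT CPM over the mean of that floor (edgeR adjusted p = 2.72e-05, limma adjusted p = 6.86e-08). AC117239.2 was at 1.79, 2.92, 2.95 and 2.74 CPM in the WT mice and at 0.474, 0.252, 0.271 and 0.125 CPM in the labelled mice (log2 fold change −3.18, SE 0.308, edgeR adjusted p = 1.54e-07). Eya1, a developmental transcriptional coactivator, was at 3.68 to 9.43 CPM in WT monocytes and 0.865 to 1.48 CPM in labelled monocytes. It had 3 to 5 counts per library in WT pre-RPMs, 0 to 4 in WT RPMs and none in labelled pre-RPMs or RPMs. The log2 fold change over the populations was −2.66 (SE 0.346, edgeR adjusted p = 3.45e-05). Outside monocytes its common sign rests on few counts.

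Ighm, the constant region of the IgM heavy chain, was lower in the libraries labelled Il1rl1-/-. The WT mice stood at 294, 373, 159 and 206 CPM and the labelled mice at 143, 91.2, 56.8 and 52.2 CPM, with no overlap between mice. The monocyte value was −1.77, the pre-RPM value −0.77 and the RPM value −2.01, and over them the difference was −1.52 (SE 0.269, edgeR adjusted p = 0.00347, limma adjusted p = 0.00363). The summed level of 8 B cell markers had medians of 66.5, 72.5 and 74.5 CPM in WT monocytes, pre-RPMs and RPMs and of 57.4, 35.6 and 49.5 CPM in the labelled ones. The ranges of that sum overlapped in monocytes and RPMs and did not overlap in pre-RPMs (56.4 to 81.9 against 27.8 to 55.9 CPM). All 8 markers were tested, none was at 0 throughout a group, all 8 had negative values with a median of −0.71, and none passed in edgeR, limma or DESeq2, with 7 at an unadjusted edgeR p under 0.05 (with the replicate block Pax5 passed, edgeR adjusted p = 0.041). The part of B cells in the Ighm result was not tested. The plasma cell markers had 5 positive values among 6 and a median of 0.11, and none passed in edgeR, limma or DESeq2 (1 at an unadjusted edgeR p under 0.05).

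The shared genes were unevenly spread over the chromosomes. Chromosome 1, which carries Il1rl1 and 6.39% of the genes tested, held 11 of the 32 (34.4%), 5 higher and 6 lower, from Cspp1 at 10.0 Mb to Hjurp at 88.3 Mb. By edgeR alone 1.83% of the 821 genes tested on chromosome 1 were called, against 0.266% of the other 12021. Il1rl1 lies at chr1:40429570-40465415, and the nearest shared genes were Dst, 6.12 Mb before it, and Inpp1, 12.3 Mb beyond it. Chromosome 15 held 5 of the 32 (15.6%, against 3.89% of genes tested), of which Lima1 was higher and Nol12, Gtpbp1, Gpd1 and Cers5 were lower. In total 13 of the 32 had another shared gene within 1 Mb.

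**Figure D4:**
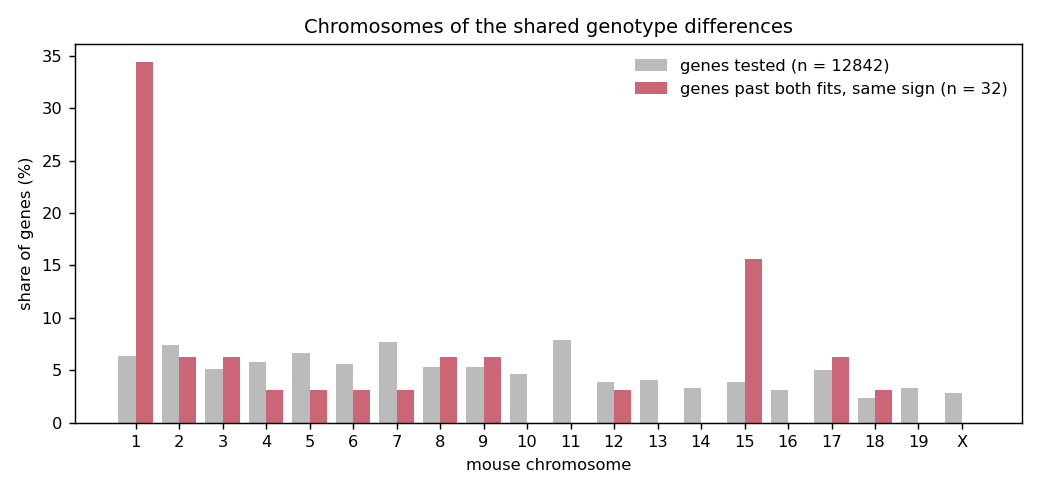
The share of the 12842 genes tested (grey) and of the 32 shared genes (red) on each mouse chromosome, in percent. Chromosome 1 holds 6.39% of the genes tested and 34.4% of the shared genes, and chromosome 15 holds 3.89% and 15.6%.

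Neighbours did not always go the same way. Gpd1, Cers5 and Lima1 follow one another on chromosome 15 at chr15:99717515-99725005, chr15:99734881-99772885 and chr15:99778470-99875456, with gaps of 9876 and 5585 bases, and the first 2 were lower while Lima1 was higher. Inpp1 and Hibch, 27.2 kb apart and on opposite strands, were both higher. Gm25360 and Gm25939 went in opposite directions, as did Hormad1 and Golph3l. In these counts a change in transcription and a sequence difference near the genes cannot be told apart.

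The genotype effect differed between the populations for 3 genes (0.0234%) by edgeR's interaction test, against 41 in DESeq2's likelihood ratio test. Besides Il1rl1 these were Nrp2, a coreceptor for semaphorins and VEGF, and Snx9, a sorting nexin of endocytosis. Nrp2 in WT monocytes was at 7.83, 10.0, 13.8 and 13.4 CPM against 9.64, 5.28, 7.13 and 5.37 CPM in the labelled group, but in RPMs it was at 2.55, 3.88, 2.15 and 2.32 CPM against 14.0, 8.86, 10.8 and 8.98 CPM. It was thus higher in all 4 labelled RPM libraries (1.93, SE 0.284) and had values of −0.72 in monocytes and −0.79 in pre-RPMs, and its common effect of −0.05 describes none of them (interaction adjusted p = 0.00131 in edgeR). Snx9 in RPMs was at 26.0, 19.4, 24.9 and 22.3 CPM in WT and 69.1, 67.3, 64.7 and 63.7 CPM in the labelled group (1.52, SE 0.171), and its values were −0.33 in monocytes and 0.14 in pre-RPMs (interaction adjusted p = 0.00131 in edgeR). Slc38a1, an amino acid transporter, was the next by interaction p (0.92 in RPMs, edgeR adjusted p = 0.0658). With the replicate block 11 genes passed the interaction test, Slc38a1 among them (edgeR adjusted p = 0.0417). None of the 32 shared genes passed it, although 5 had an unadjusted p under 0.05, namely Golph3l, Mfap1a, Hjurp, Gm25939 and Eya1. These 5 are a larger share of the 32 than genes with such a p are of all genes tested. Their common sign is therefore not evidence of an effect of equal size in the populations.

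2 further genes passed both tests without a common sign. These were the immunoglobulin variable genes Igkv6-14 (3.09, SE 0.452, edgeR adjusted p = 0.000241) and Ighv13-2 (3.68, SE 0.679, edgeR adjusted p = 0.00545), which had positive values in monocytes and pre-RPMs and negative values with large errors in RPMs. The summed level of the 6 plasma cell markers had medians of 1420, 419 and 206 CPM in WT monocytes, pre-RPMs and RPMs and of 3590, 587 and 110 CPM in the labelled ones. The WT and labelled ranges overlapped in monocytes (1270 to 1580 against 1130 to 5160 CPM), pre-RPMs (316 to 519 against 205 to 1000 CPM) and RPMs (147 to 307 against 72.9 to 183 CPM), and the part of plasma cells in both results was not tested. A further 12 genes were called by edgeR and not by limma, and 10 by limma and not by edgeR. All 12 passed both tests with the replicate block.

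The genes of the IL-33 pathway did not share a genotype effect. Of 23 members tested, from the receptor chains Il1rl1 and Il1rap through the Irak kinases to NF-kB, Il1rl1 was the sole call, and the median of the list was 0.03. Il1rap, the shared chain of the receptor, was at 8.37 ± 2.56 CPM in the WT libraries and 7.14 ± 2.97 CPM in the labelled ones (SD, n = 12), a value of −0.26 with an edgeR adjusted p of 0.525. Irak4, the kinase that starts the cascade, had −0.23 (edgeR adjusted p = 0.326). Of 7 tested genes in the cluster around Il1rl1 on chromosome 1, edgeR called Il1rl2, a receptor chain for IL-36, as higher (1.59, edgeR adjusted p = 0.032, limma adjusted p = 0.063) and Il18r1, a receptor chain for IL-18, as lower (−1.30, edgeR adjusted p = 0.0262, limma adjusted p = 0.278). With the replicate block both passed both tests, and so did Il18rap, the other chain of the IL-18 receptor (−0.78, edgeR adjusted p = 0.0235, limma adjusted p = 0.0176). DESeq2 without the block called Il1rl2, Il18r1 and Il18rap as well. NK cells express both chains of the IL-18 receptor, and Ncr1 is an NK cell marker. In pre-RPMs the WT and labelled means were 12.2 and 2.53 CPM for Il18r1, 20.2 and 7.29 CPM for Il18rap and 18.7 and 4.35 CPM for Ncr1, and the part of NK cells in these values was not tested.

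**Figure D5:**
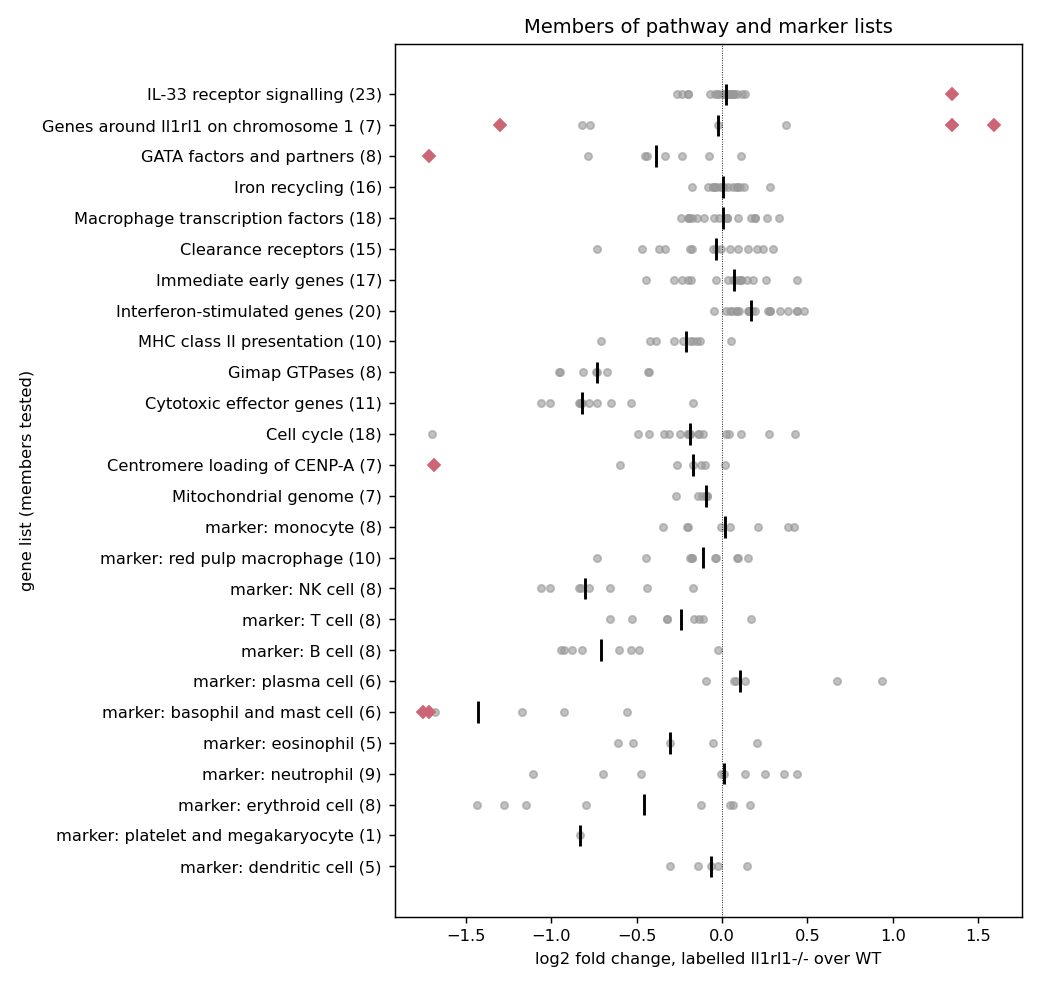
The log2 fold change of the libraries labelled Il1rl1-/- over WT for each tested member of 26 lists of genes, with the median as a vertical line. Diamonds mark members past the edgeR threshold, which are Il1rl1, Il18r1, Il1rl2, Gata2, Hjurp and Cpa3, and circles mark the rest.

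No list that marks the work of RPMs held a call for the effect common to the populations. Among 16 iron recycling genes, 18 macrophage transcription factors and 15 clearance receptors tested, edgeR called 0 in either direction, and the medians were 0.005, 0.003 and −0.04. Slc40a1, the iron exporter ferroportin, had −0.17 (edgeR adjusted p = 0.902) and Ftl1, the ferritin light chain, 0.13 (0.809). The mean level over the WT and labelled libraries was 559 ± 816 and 713 ± 1050 CPM for Slc40a1 and 620 ± 567 and 726 ± 697 CPM for Ftl1 (SD). For Slc40a1 the mean level and the common effect thus pointed opposite ways. The common effect does not describe RPMs alone. At an unadjusted p under 0.05 the counts were 0, 2 and 0, and limma, DESeq2 and the replicate block also called 0. There was likewise no call by any of these for 20 interferon-stimulated genes, of which 19 had positive values with a median of 0.17 and none an unadjusted p under 0.05, for 17 immediate early genes (median 0.07, 2 at an unadjusted p under 0.05) and for 10 genes of MHC class II presentation (median −0.21, 2 at an unadjusted p under 0.05). The 18 cell cycle genes (3 at an unadjusted edgeR p under 0.05) and the 7 genes of the mitochondrial genome (1) held no call by these tools either.

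Lists of cytotoxic and lymphocyte genes stood below 0 as a whole. All 11 cytotoxic effector genes had negative values with a median of −0.82, and all 8 Gimap GTPases, which are lymphocyte survival factors, had negative values with a median of −0.73. Neither list held a call by edgeR or limma, DESeq2 called Gzmb and Gimap4, and 8 and 6 of their members had an unadjusted edgeR p under 0.05. With the replicate block 4 cytotoxic genes and 2 Gimap genes passed both tests, as did 0.639% of all genes tested, for example Gzmb (−0.96, edgeR adjusted p = 0.0195) and Gimap4 (−0.90, edgeR adjusted p = 0.0175). The summed NK cell marker level was not independent of the cytotoxic list, since Gzma, Gzmb, Prf1, Ncr1, Klrb1c and Klrk1 are in both. It had medians of 1470, 122 and 36.3 CPM in WT monocytes, pre-RPMs and RPMs and of 1090, 44.4 and 24.2 CPM in the labelled ones, with ranges that were apart in pre-RPMs (91.3 to 170 against 35.8 to 70.9 CPM) and overlapped in the others. All 8 tested NK markers had negative values, with 1 of the 9 listed at 0 in pre-RPMs and RPMs, and the part of NK cells in these values was not tested.

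Gata2, a transcription factor of mast cells and basophils, was called as lower by edgeR and not by limma (−1.72, edgeR adjusted p = 0.0246, limma adjusted p = 0.196). The same held for Cpa3, a mast cell protease (−1.75, edgeR adjusted p = 0.0381, limma adjusted p = 0.216). DESeq2 called both, and also Ms4a2, another basophil and mast cell marker. Gata2 and Cpa3 passed both tests with the replicate block. Gata2 stood at 4.74 to 23.6 CPM in WT pre-RPMs and 0.896 to 2.43 CPM in labelled ones, with overlapping ranges in monocytes (6.22 to 26.3 against 3.1 to 10.6 CPM) and RPMs (0.268 to 2.86 against 0.22 to 2.03 CPM). It was the sole call among 8 GATA factors and partners, whose median was −0.39. The 6 tested basophil and mast cell markers, which include both genes, had negative values throughout and a median of −1.43. Their sum had medians of 53.4, 27.3 and 7.72 CPM in WT monocytes, pre-RPMs and RPMs and of 28.6, 7.94 and 3.69 CPM in the labelled ones. The ranges of the sum were apart in pre-RPMs (15.8 to 61.5 against 5.93 to 9.54 CPM) and overlapped in monocytes and RPMs. In labelled pre-RPMs and in RPMs of both genotypes 2 of the 9 markers were at 0. The part of these cells in the Gata2 value was not tested. Of the remaining marker lists, monocyte (8 tested, median 0.02), RPM (10, −0.11), T cell (8, −0.24), eosinophil (5, −0.31), neutrophil (9, 0.01), erythroid (8, −0.46), dendritic cell (5, −0.06) and platelet (1, −0.83) markers held no call by edgeR, limma or DESeq2, with 0 to 2 members each at an unadjusted edgeR p under 0.05. Within RPMs the summed RPM markers were nevertheless apart, at 6980 to 8940 CPM in WT and 9340 to 9700 CPM in the labelled libraries. So were the summed neutrophil markers there, at 10.7 to 19.6 against 1.76 to 6.08 CPM. Both sums overlapped between the genotypes in monocytes and pre-RPMs, and the cause was not tested.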

How the data were processed

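RNA from sorted splenocytes was made into stranded total RNA libraries and sequenced. Per the file headers and the study's methods, the authors aligned the reads with STAR 2.5.1 and counted fragments per gene with featureCounts 1.6.2 with the reverse-stranded setting on GRCm38 (Ensembl annotation), so the deposited values are raw counts of uniquely placed fragments. The 24 ATAC-seq samples were not analysed here. Of 54735 genes, 12842 passed filterByExpr over the 6 groups of cell type and genotype.

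Counts were TMM-scaled and fitted with edgeR 4.0.16 (glmQLFit and glmQLFTest, terms for cell type and genotype) and with limma 3.58.1 (voom, duplicateCorrelation by mouse, consensus correlation 0.0713), with R 4.3.3. Adjusted p is Benjamini-Hochberg over all genes tested. Log2 CPM used a prior count of 2. The study compared genotypes within each cell type with DESeq2, which served as an alternative (1.42.0). The edgeR p-values measure the spread between 12 libraries a group, 3 to a mouse. The limma p-values also rest on the libraries, with the 1 correlation of 0.0713 assumed within every mouse for all genes. At so low a correlation they are close to a test over 12 libraries a group and are not a test over 4 mice against 4. Counts summed per mouse, which are such a test, called 22 of the 32 shared genes. Counts per library limit the precision at low levels. Whether the 3 libraries of a number are 1 mouse rests on the labels. Same-numbered libraries of different cell types deviated together with a median r of 0.113 (24 pairs), against −0.0352 for other mice of the genotype. Same-numbered mice of both genotypes also deviated together (r = 0.245, 0.271, 0.376 and 0.255 for numbers 1 to 4, across genes), so the shared mouse number in the labels was taken to pair them. The fits were run on simulated data with and without variation between mice. A pass was required only of the edgeR fit without such variation, so the simulation does not settle how libraries of 1 mouse affect the calls.

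The genes named were the 12 largest rises and 12 largest falls among shared genes of at least 1 log2 CPM, Il1rl1, the 4 smallest interaction p and up to 4 members of each list, and the remaining shared genes, the other chromosome 11 copies of U2 and genes counted in groups of 5 or fewer were added after their values were seen. The members and lists were chosen with earlier results of these data known. Sequences were read from the RefSeq GRCm38.p6 genome at the genes' coordinates, copies were compared with edlib 1.3.9.post1, and transcripts with blastn 2.17.0. Of 54000 genes matched to GENCODE M21 by ID, 53253 had the same span, and coordinates are those. Alternatives tried were other scaling, filters, a replicate block, DESeq2, counts summed per mouse, and leaving out each library, mouse or cell type.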

Additional observations from a re-analysis of the deposited data

Results flagged for a closer look

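For 3 genes the genotype effect differed between monocytes, pre-RPMs and RPMs by edgeR's interaction test, with adjusted p of 0.00485 for Il1rl1, 0.00131 for Nrp2 and 0.00131 for Snx9.

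Among the 33 genes that are shared or targeted, 66 groups of 4 mice were examined for a mouse far from the other 3 in mean log2 CPM, and 5 stood out by Dixon's 95% criterion, of which chance flags about 1 in 20 groups. For Hibch, WT mouse 4 was at 1.91 against 1.96 to 1.97 in the other WT mice (gap over range 0.879), and Il1rl1-/- mouse 2 was at 3.00 against 2.68 to 2.71 (0.901). For Hjurp, WT mouse 3 was at 5.84 against 6.19 to 6.23 (0.888). For Nol12, Il1rl1-/- mouse 1 was at 3.96 against 3.35 to 3.43 (0.864). For AC117239.2, WT mouse 1 was at 1.13 against 1.66 to 1.74 (0.857). Each of these genes was still in the shared set when that mouse was left out.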

How the results depend on the processing

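Under RLE scaling the counts of genes called were 48 by edgeR, 46 by limma, 32 shared and 3 by the interaction test, and with library sizes that leave out Gm42418 and the mitochondrial genes they were 50, 44, 31 and 4. Keeping every gene with at least 1 count gave 349 by edgeR, 60 by limma, 37 shared and 295 by the interaction test. Requiring 10 counts in every library, which left 8144 genes, gave 18, 17, 17 and 1. With the mouse number as a replicate block the counts were 82, 187, 74 (all 32 among them) and 11, and 29 of the 82 were higher. The block ended no call among the 32 shared genes or Il1rl1, and it added the list members named in the report. Without the monocyte libraries the counts were 75, 56, 50 and 13, without the pre-RPM libraries 23, 25, 20 and 4, and without the RPM libraries 30, 25, 24 and 0 (edgeR, with 454 genes at an unadjusted p under 0.05). DESeq2 called 71 genes (26 higher), all 32 shared genes among them, and 41 by its interaction test. Counts summed per mouse gave 35, with 22 of the 32 shared genes called. Requiring an absolute log2 fold change above 1 gave 27. Leaving out each library gave 38 to 84 by edgeR, 39 to 74 by limma, 29 to 55 shared and 2 to 5 by the interaction test, and leaving out each mouse gave 30 to 94, 35 to 87, 25 to 67 and 2 to 5. Of the 32 shared genes, 28 stayed shared in all 24 library fits and 20 in all 8 mouse fits. Il1rl1 ranged from 1.22 to 1.49 over the leave-outs, lost its edgeR call without WT mouse 1 or Il1rl1-/- mouse 2, and stood at 0.797 without monocytes, 1.17 without pre-RPMs and 1.84 without RPMs. Of 1524 values of single genes under an alternative, 1358 kept their direction and side of the threshold, 166 kept the direction and lost the call, and 0 reversed. The cause was not tested for any of these, beyond the fewer genes or samples that a filter or a leave-out itself brings. Genes under about 1 log2 CPM are limited by depth.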
